A study of Mus musculus with 40 samples.

Results

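Transcripts of 8 genes of cholesterol synthesis and its control by SREBP2 were followed through 4 stages of B cell development in the bone marrow of mutant and wild-type (WT) chimeric mice. The genes are Hmgcs1, Sqle, Fdft1, Idi1 and Cyp51, which encode enzymes, and Srebf2, Insig1 and Scap, which encode the regulators. They were taken by symbol, matched by Ensembl identifier to GENCODE M21, and all 8 were found, each as 1 of the 21958 gene rows of the count table. RNA was counted in 40 Smart-seq2 libraries of 100 sorted cells each. Lethally irradiated CD45.1 hosts had received marrow from donors homozygous for P198A, a proline to alanine change made with CRISPR/Cas9 in the zinc transporter ZIP7 (Slc39a7), or from WT donors, and 8 weeks later donor cells (CD45.1- CD45.2+) were sorted from 5 mice of each genotype. Each mouse gave 1 library of each Hardy fraction: FrB (pro-B cells, B220+ CD43+ CD24+ BP1-), FrC (whose gate the sources used here do not give), FrD (late pre-B cells, B220+ CD43- IgM- IgD-) and FrE (immature B cells, IgM+ IgD-). The mutant mice are numbered 4, 5, 8, 9 and 10 and the WT mice 1, 2, 3, 6 and 7. The sample titles abbreviate the mutant as KO, but the allele changes a single residue, so the RNA level of Slc39a7 does not check the genotype, and the hosts of both groups were irradiated CD45.1 animals, and in the mutant group donor-derived cells alone carry the allele.

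Cells make cholesterol from acetyl-CoA through the mevalonate pathway, and rapidly dividing lymphocyte precursors need it for new membrane. SREBP2, the transcription factor encoded by Srebf2, is made as a precursor in the membrane of the endoplasmic reticulum, where it is bound to the escort protein SCAP. When sterols are low, SCAP carries SREBP2 to the Golgi, proteases release its active part, and genes of synthesis and uptake are switched on, while INSIG1 holds SCAP back in the endoplasmic reticulum when sterols are high. Insig1 and Srebf2 are themselves known SREBP2 targets, whereas Scap is usually described as little controlled by sterols.

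The windows upstream of the transcription start of 3 regulators and 1 enzyme are shown, Scap, Srebf2 and Insig1 because the contrasts described below lie in them and Hmgcs1 as an enzyme gene with the SREBP motif. RefSeq promoter windows of build GRCm38.p6 were matched for 6 of the 8 genes, with no entry for Sqle and Fdft1, and the 250 bases before the RefSeq start are printed 5′ to 3′ along the gene's strand. Capitals mark matches on either strand to TCACNCCA, the core of the sterol regulatory element to which SREBPs bind, and to CCAAT, the box bound by NF-Y, which reads ATTGG where it lies on the other strand.
Scap (chr9:110333038-110333287, + strand): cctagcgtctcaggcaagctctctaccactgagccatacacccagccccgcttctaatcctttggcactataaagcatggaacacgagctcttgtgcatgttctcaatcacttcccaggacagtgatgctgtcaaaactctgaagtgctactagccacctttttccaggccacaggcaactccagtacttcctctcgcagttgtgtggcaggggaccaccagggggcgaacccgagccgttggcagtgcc
Srebf2 (chr15:82147019-82147268, + strand): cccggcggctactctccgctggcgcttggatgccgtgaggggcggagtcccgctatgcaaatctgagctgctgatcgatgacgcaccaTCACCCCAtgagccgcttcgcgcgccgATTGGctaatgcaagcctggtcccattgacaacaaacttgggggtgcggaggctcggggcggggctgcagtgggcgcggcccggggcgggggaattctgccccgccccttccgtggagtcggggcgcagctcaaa
Insig1 (chr5:28071162-28071411, + strand): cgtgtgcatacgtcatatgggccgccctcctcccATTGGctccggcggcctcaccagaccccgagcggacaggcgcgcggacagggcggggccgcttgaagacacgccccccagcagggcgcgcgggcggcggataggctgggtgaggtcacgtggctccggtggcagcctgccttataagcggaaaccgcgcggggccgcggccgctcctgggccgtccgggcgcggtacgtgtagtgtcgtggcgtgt
Hmgcs1 (chr13:119690101-119690350, + strand): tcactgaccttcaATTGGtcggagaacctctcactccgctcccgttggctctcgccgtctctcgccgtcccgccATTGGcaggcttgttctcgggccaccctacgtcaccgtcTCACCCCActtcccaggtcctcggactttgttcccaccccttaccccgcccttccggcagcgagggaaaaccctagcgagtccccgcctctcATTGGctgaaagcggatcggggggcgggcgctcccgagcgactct
TCACNCCA occurred in the windows of Hmgcs1 and Srebf2, with its first base 137 and 162 bases before the start, and in 3.67% of all 32851 promoter windows of the same length. The match in Hmgcs1 also fitted the longer form TCACNCCAC, which 1.05% of all windows held. CCAAT occurred 3 times in Hmgcs1, 2 times in Idi1, and 1 time each in Cyp51, Srebf2 and Insig1, and 33.8% of all windows held it. Neither run of letters was present in the window of Scap. A match is a description of these letters in this window and shows no binding.

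Endogenous totals ran from 42111 counts, in FrE of mutant mouse 9, to 43372070 counts, with a second lowest total of 1723215. A library is called low-complexity here where genes with 1 to 9 counts made up over 15% of its detected genes, which held for 10 libraries. They were 8 of the 20 mutant libraries (FrB of mice 4, 8, 9 and 10, FrC of mice 5, 9 and 10, and FrE of mouse 9) and 2 of the 20 WT libraries (FrD of mouse 3 and FrE of mouse 7). In FrB, where 4 of 5 mutant libraries and no WT library were of low complexity, complexity and genotype largely coincided. Values without the low-complexity libraries, which leave 1 mutant library in FrB and 2 in FrC, are given beside the main results. The B lineage markers Cd79a, Cd79b, Vpreb1, Igll1 and Ms4a1 summed to 4241 to 7714 CPM (counts per 1000000 endogenous counts) in mutant FrB libraries, against 9484 to 12169 CPM in WT FrB libraries. Cd79a, Cd79b and Ms4a1 were lower in every mutant FrB library than in every WT one. Vpreb1 went the other way, with a median of 3017 CPM in mutant FrB and 1512 CPM in WT FrB, and the ranges of Igll1 overlapped.

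**Figure D1:**
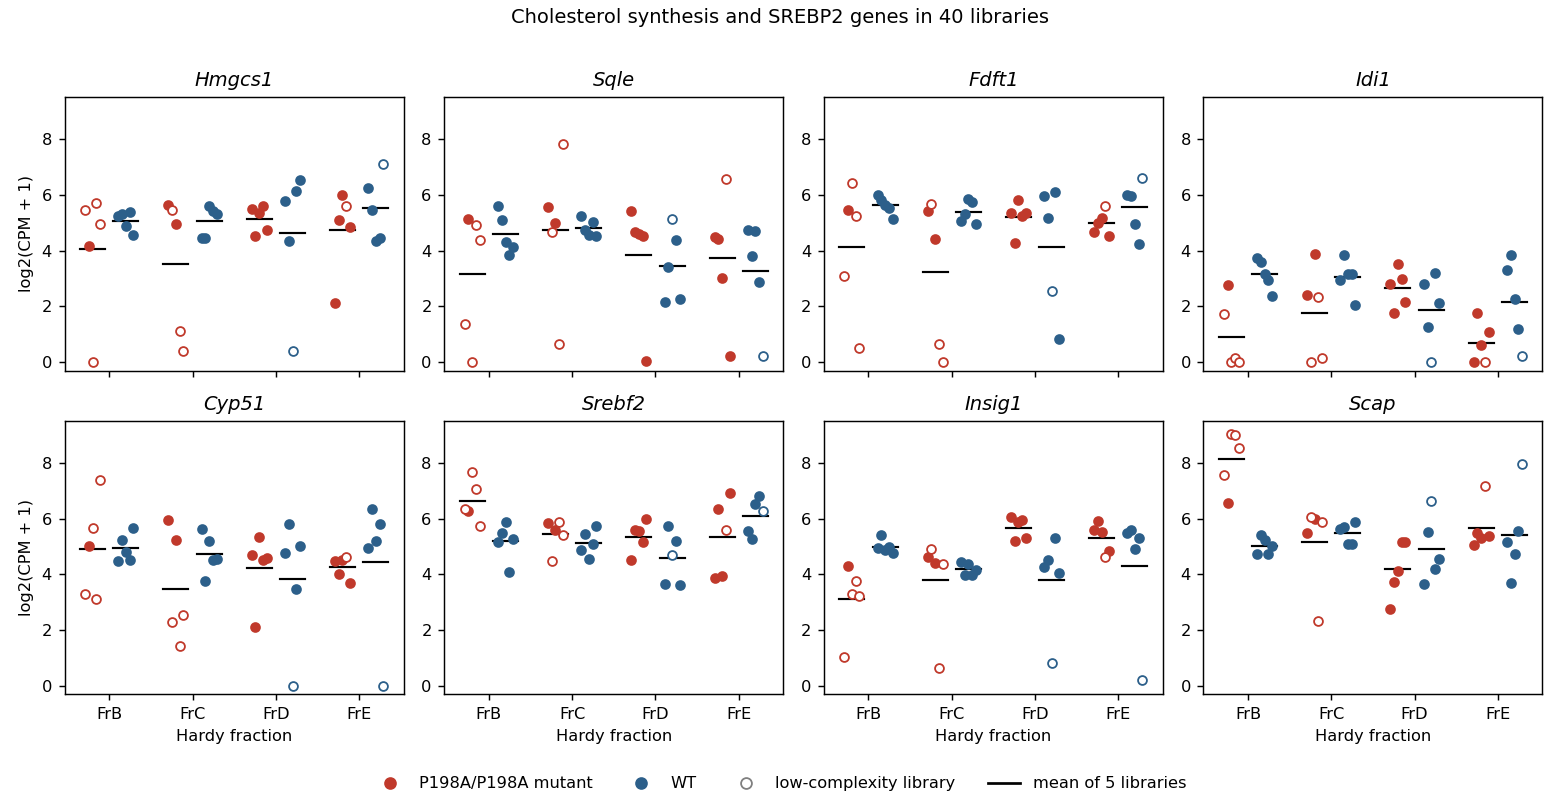
Level of each of the 8 genes in all 40 libraries, as log2(CPM + 1), by fraction, with P198A/P198A mutant libraries in red to the left of WT libraries in blue. Open circles are low-complexity libraries and bars are means of the 5 log2 values. In FrB all 5 mutant libraries lie above all 5 WT libraries for Scap and below them for Insig1.

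Of the 8 genes, Scap was the 1 that passed the test between genotypes within a fraction, and it did so in FrB. Scap, the sterol sensor that escorts SREBP2 to the Golgi (ENSMUSG00000032485, chr9:110333288-110384950, + strand, GRCm38), stood at 188, 93.5, 517, 510.0 and 372 CPM in FrB of mutant mice 4, 5, 8, 9 and 10, against 25.8, 41.4, 36.9, 25.6 and 31.6 CPM in FrB of WT mice 1, 2, 3, 6 and 7. Every mutant library was above every WT library, and the lowest mutant value came from mouse 5, the 1 mutant FrB library that was not of low complexity. The means were 336 ± 190.4 CPM in mutant FrB and 32.3 ± 6.92 CPM in WT FrB (SD, n = 5 each). The log2 fold change was 3.85 ± 0.56 (SE, edgeR quasi-likelihood test, Benjamini-Hochberg adjusted p = 0.00396). Levels come from a fixed number of sorted cells, so fewer cells of a type and less RNA per cell cannot be told apart.

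Scap was thus 1 of 8 genes higher in mutant FrB and 0 of 8 were lower, while 7.37% of all 10562 genes tested were called in either direction, 5.64% higher and 1.72% lower. The groups' CPM ranges did not overlap, mutant higher, for 4.43% of the 10504 genes with at least 10 counts in at least 5 of the 10 libraries. Without the low-complexity libraries the difference was 1.47 ± 0.40 and no longer passed the test (adjusted p = 0.11), with 1 mutant library left, which is assumed to vary like the WT libraries. Leaving out each mouse in turn gave 3.44 to 4.14, past the threshold each time. In the libraries with the first set of second index primers the 2 mutant values were 93.5 and 510.0 CPM and the 3 WT values 25.8 to 36.9 CPM, and in those with the second set the 3 mutant values were 188 to 517 CPM and the 2 WT values 25.6 and 41.4 CPM.

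Markers of other cells differed between the same FrB libraries. All 9 granulocyte and monocyte markers were detected and summed to 2210 to 57777 CPM in mutant FrB, against 41.7 to 9837 CPM in WT FrB. The 5 plasma cell markers, none at 0, summed to 860.0 to 12447 CPM in mutant FrB and 17421 to 52490 CPM in WT FrB. The 7 erythroid markers, again none at 0, summed to 61.6 to 11808 CPM in mutant FrB and 2071 to 22940 CPM in WT FrB, and the 5 T cell markers stayed at or below 59.6 CPM in both. Their part in the difference of Scap, and that of library complexity, was not tested.

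Beyond FrB, Scap did not separate the genotypes. In FrC it was 43.7, 66.4, 61.9, 4.06 and 58.2 CPM in mutant mice 4, 5, 8, 9 and 10, against 48.9, 50.8, 33.4, 32.7 and 58.6 CPM in WT mice 1, 2, 3, 6 and 7. In FrD it was 5.86, 12.2, 16.5, 34.8 and 35.2 CPM in the mutants, against 11.5, 44.4, 98.6, 17.2 and 22.4 CPM in WT. These ranges overlapped, and the highest WT value in FrD was that of mouse 3, a low-complexity library. FrE held 32.7, 43.6, 38.7, 142 and 40.2 CPM in the mutants, against 34.5, 12.1, 25.8, 46.0 and 250.2 CPM in WT. The high values there were those of mutant mouse 9, which rests on 6 counts, and of WT mouse 7, both low-complexity libraries. The log2 fold changes of Scap were 0.51 ± 0.49, -1.31 ± 0.77 and -0.94 ± 0.81 (SE) in FrC, FrD and FrE, with adjusted p = 0.743, 0.934 and 0.999 (edgeR). With those low-complexity libraries left out they were 0.25 ± 0.32, -0.33 ± 0.66 and 0.34 ± 0.51.

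**Figure D2:**
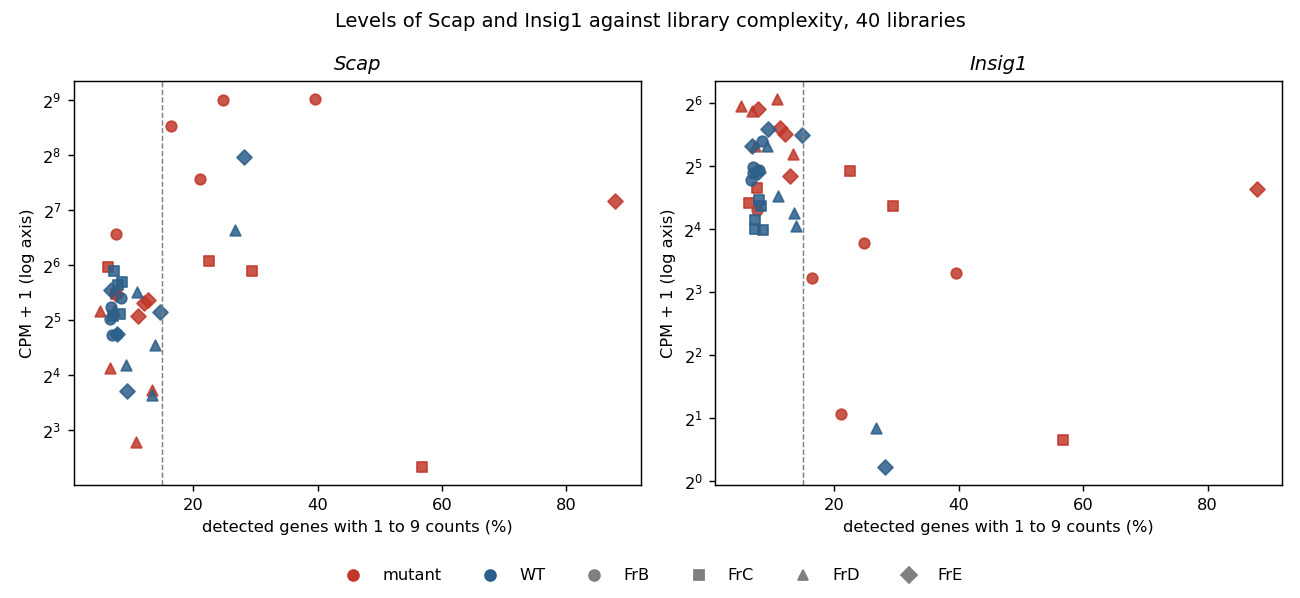
Level of Scap (left) and Insig1 (right) as CPM + 1 on a log axis against the percentage of detected genes with 1 to 9 counts, in 40 libraries, with mutant libraries in red, WT libraries in blue and the shape giving the fraction. The dashed line at 15% divides the 10 low-complexity libraries, where Scap ran from 4.06 to 517 CPM and Insig1 from 0.174 to 29.3 CPM, from the other 30, where they ran from 5.86 to 93.5 and from 14.8 to 65.5 CPM.

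Over all groups, Scap had a median of 165 CPM in the 10 low-complexity libraries and 34.7 CPM in the other 30. The 3 low-complexity libraries of mutant FrC, at 4.06 to 66.4 CPM, did not share the high values of those of mutant FrB. Each low-complexity library of FrD and FrE held the highest value of its group. These were WT FrD of mouse 3 (98.6 CPM), WT FrE of mouse 7 (250.2 CPM) and mutant FrE of mouse 9 (142 CPM from 6 counts). Among the 30 other libraries, FrB of mutant mouse 5 held the maximum of 93.5 CPM.

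The change of the genotype difference from FrB to FrD was tested after the values of Scap and Insig1 had been seen. For Scap the mutant over WT difference was lower in FrD than in FrB by a log2 value of -5.19 ± 0.98 (SE, edgeR on all 40 libraries, adjusted p = 0.0137), and of the 12397 genes tested 0.194% were called in this comparison and 0.113% were called lower. The call was lost without the low-complexity libraries (-1.85, adjusted p = 0.971), under ERCC scaling (-4.95, adjusted p = 0.156), and on leaving out WT mouse 3 or mutant mouse 4, 8 or 9.

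Insig1, which encodes the endoplasmic reticulum anchor of SCAP (ENSMUSG00000045294, chr5:28071363-28078662, + strand), was at the low end in mutant FrB. It had 1.08, 18.6, 8.83, 12.7 and 8.33 CPM in mutant mice 4, 5, 8, 9 and 10, against 29.7, 41.2, 28.6, 30.8 and 26.5 CPM in WT mice 1, 2, 3, 6 and 7. The ranges did not overlap, mutant lower, as for 8.35% of genes in FrB, and the fitted difference of -1.37 ± 0.80 (SE) did not pass the test (edgeR, adjusted p = 0.306). With mouse 5 as the 1 mutant library, the others being of low complexity, it was -0.82 ± 0.54 (adjusted p = 0.575). In FrC the mutant libraries held 24.0, 29.3, 20.4, 0.58 and 19.6 CPM and the WT libraries 20.9, 14.8, 19.6, 14.9 and 16.7 CPM, in the same order of mice. Apart from mutant mouse 9, the FrC values of both genotypes lay close together.

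In FrD the mutant mean was the higher one. Insig1 stood at 65.5, 35.5, 57.6, 60.6 and 38.7 CPM in mutant FrD, against 18.1, 21.9, 0.785, 38.7 and 15.5 CPM in WT FrD, where the lowest value was that of the low-complexity library of mouse 3. The highest WT library reached into the mutant range, and the difference of 1.34 ± 0.70 did not pass the test (edgeR, adjusted p = 0.931). Without that library it was 1.04 ± 0.44 (adjusted p = 0.352). In FrE the mutant libraries held 47.7, 58.9, 44.7, 23.7 and 27.5 CPM, against 43.9, 46.9, 28.8, 39.0 and 0.174 CPM in WT. The FrE ranges overlapped, with a fitted difference of 0.31 ± 0.85. Markers of other cells differed in FrD too. The granulocyte and monocyte markers had a median sum of 1623 CPM in mutant FrD and 32.0 CPM in WT FrD, and the erythroid markers 6134.5 and 78.6 CPM. The highest WT sums of both, 73151 and 31806 CPM, were those of mouse 3, and the plasma cell medians were 1491 and 1273 CPM. Their part in the FrD difference of Insig1 was not tested. For Insig1 the change of the genotype difference from FrB to FrD was 2.70 ± 1.07 and did not pass the test (adjusted p = 0.183), and without the low-complexity libraries it was 1.82 ± 0.77 (adjusted p = 0.971).

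Srebf2, the gene of SREBP2 itself (ENSMUSG00000022463, chr15:82147181-82205379, + strand), had 80.2, 77.3, 203, 133 and 52.9 CPM in FrB of mutant mice 4, 5, 8, 9 and 10, against 35.2, 44.3, 58.4, 16.0 and 37.5 CPM in FrB of WT mice 1, 2, 3, 6 and 7. Here 4 of the 5 mutant libraries were above all WT libraries, and the mutant library of mouse 10 was below WT mouse 3. The log2 fold change was 2.02 ± 0.60 (SE), just outside the threshold (edgeR, adjusted p = 0.055), and it was 0.96 ± 0.51 without the low-complexity libraries. It passed the threshold with DESeq2 (2.29, adjusted p = 0.00501), which called 17.8% of all genes, and with RLE factors (adjusted p = 0.0471), which called 7.75%. It also passed without mutant mouse 5 or 10 (adjusted p = 0.0256 and 0.0447), where 18.0% and 6.29% of all genes were called. Leaving out mutant mouse 8 lowered the value to 1.401.

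In the later fractions the Srebf2 ranges overlapped. Mutant libraries held 21.1 to 58.0, 21.8 to 63.0 and 13.5 to 120 CPM in FrC, FrD and FrE, against 22.3 to 52.0, 11.4 to 52.3 and 37.2 to 110.2 CPM in WT libraries. Fitted differences were 1.80 ± 0.72, 0.42 ± 0.57 and -0.56 ± 0.63 in the same order, with adjusted p = 0.339, 0.991 and 0.999 (edgeR). The FrC means were 45.0 ± 14.9 CPM in the mutants and 35.7 ± 11.7 CPM in WT (SD, n = 5 each), and without the low-complexity libraries the FrC difference was 0.56 ± 0.34 (adjusted p = 0.948). The microRNA Mir33 lies within Srebf2 without sharing its exons, and is not analysed here.

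**Figure D3:**
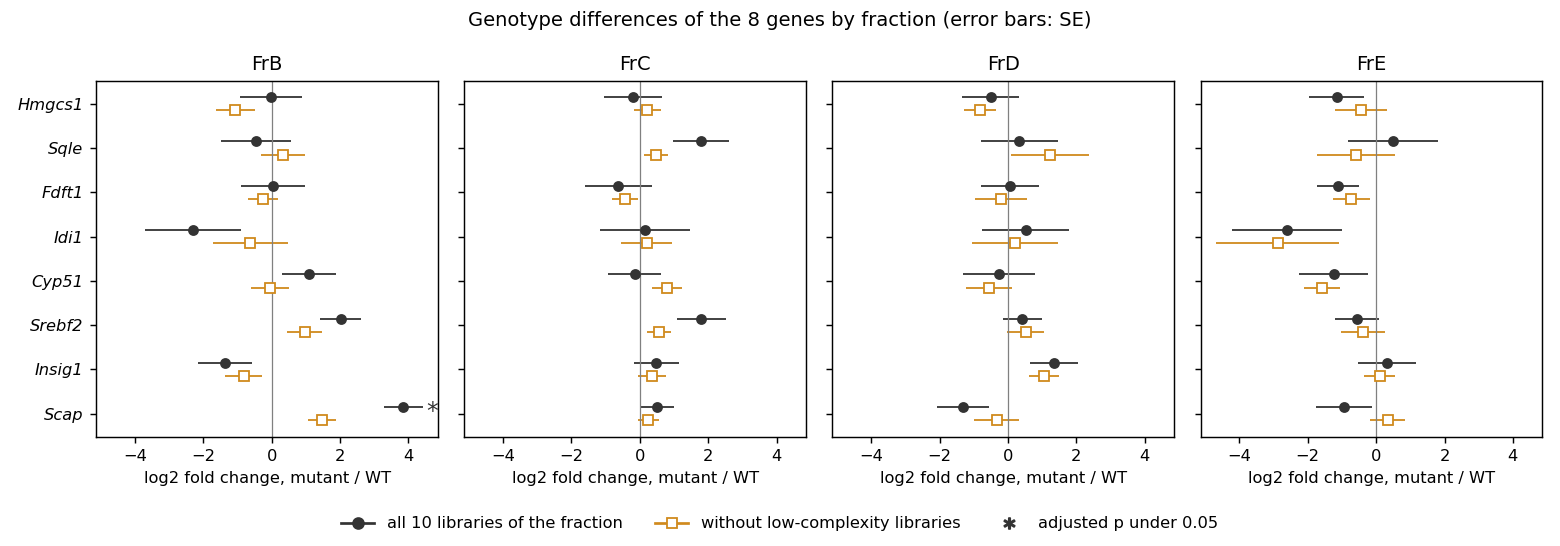
Fitted log2 fold change, mutant over WT, of each gene in each fraction, with SE as error bars. Filled circles use all 10 libraries of the fraction and open squares leave out the low-complexity libraries. The asterisk marks Scap in FrB, at 3.85 with all libraries and 1.47 without the low-complexity ones.

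The 5 enzymes gave differences of either sign between genotypes. Hmgcs1, Sqle, Fdft1, Idi1 and Cyp51 gave log2 fold changes in FrB of -0.03, -0.46, 0.04, -2.30 and 1.09, with SE of 0.80 to 1.41, and none passed the test. Over all 8 genes the FrB median was 0.007, with 4 above 0 and 4 below, beside a median of 0.112 over all genes tested. Without the low-complexity libraries these medians were -0.154 and -0.158.

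Hmgcs1, which encodes an early enzyme of the mevalonate pathway (ENSMUSG00000093930, chr13:119690379-119708260, + strand), had 43.2, 16.8, 0, 51.9 and 30.2 CPM in FrB of mutant mice 4, 5, 8, 9 and 10, against 36.9, 38.5, 28.3, 41.3 and 22.8 CPM in FrB of WT mice 1, 2, 3, 6 and 7. The mutant values scattered on both sides of the WT range. In FrC the mutants held 0.309 to 48.7 CPM and WT 20.7 to 47.4 CPM, and in FrD the mutants held 22.1 to 47.8 CPM and WT 0.314 to 91.9 CPM. FrE ran from 3.36 to 62.2 CPM in the mutants and from 19.1 to 138 CPM in WT, the maximum again being the low-complexity library of WT mouse 7.

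Idi1 encodes isopentenyl-diphosphate isomerase (ENSMUSG00000058258, chr13:8885501-8892451, + strand) and was the lowest of the 8 genes per kilobase of exon in all 8 groups. In FrB it had 2.29, 5.75, 0, 0.106 and 0 CPM in the mutants, against 12.4, 10.95, 7.96, 6.79 and 4.25 CPM in WT. Most mutant values lay below the WT range, with mouse 5 inside it, and the difference of -2.30 ± 1.41 (SE) did not pass the test (edgeR, adjusted p = 0.335). Mouse 5 alone against WT gave -0.62 ± 1.09 (adjusted p = 0.848). In FrE it had 0, 2.41, 0.532, 0 and 1.11 CPM in the mutants, against 8.93, 13.2, 3.86, 1.30 and 0.174 CPM in WT (-2.61 ± 1.62, adjusted p = 0.999). The ranges overlapped through WT mice 6 and 7. Idi1 was at 0 in 5 of the 10 low-complexity libraries and in 1 of the other 30.

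Fdft1 encodes squalene synthase, which commits farnesyl units to sterols (ENSMUSG00000021273, chr14:63145150-63179578, - strand). It averaged 34.6 ± 33.8, 22.5 ± 23.0, 38.0 ± 13.4 and 31.9 ± 10.1 CPM in mutant FrB, FrC, FrD and FrE, against 49.1 ± 10.4, 42.2 ± 11.8, 33.8 ± 30.8 and 53.7 ± 31.1 CPM in the WT fractions (SD, n = 5). The groups overlapped in every fraction, and the fitted differences ran from -1.12 ± 0.61 in FrE to 0.05 ± 0.85 in FrD. The exons of Fdft1 overlap those of Ctsb on the opposite strand, and those of Cyp51 overlap Akap9. Those of Scap, Hmgcs1 and Idi1 overlap 5830462I19Rik, Gm48342 and Gm48574, also on the opposite strand, which have no row of their own in the counts. No source used here gives the strand setting of the counting, so reads of the overlapping parts cannot be told apart.

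Sqle, squalene monooxygenase (ENSMUSG00000022351, chr15:59315077-59331192, + strand), had 46.9, 24.4, 30.5, 0.58 and 228 CPM in FrC of mutant mice 4, 5, 8, 9 and 10, against 37.2, 26.0, 22.6, 31.3 and 22.2 CPM in FrC of WT mice 1, 2, 3, 6 and 7. The mutant group held both the lowest and the highest value, each in a low-complexity library. The difference of 1.79 ± 0.83 (SE) did not pass the test (edgeR, adjusted p = 0.435) and was 0.48 ± 0.35 without the low-complexity libraries. In FrB the mutants held 0 to 33.9 CPM and WT 13.4 to 47.7 CPM, in FrD the mutants held 0.042 to 41.4 CPM and WT 3.49 to 33.7 CPM, and in FrE the mutants held 0.159 to 95.0 CPM and WT 0.174 to 25.5 CPM. All these ranges overlapped.

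Cyp51, lanosterol demethylase (ENSMUSG00000001467, chr5:4081145-4104746, - strand), had 8.91, 31.6, 49.8, 7.63 and 165 CPM in FrB of the mutants, against 21.5, 37.1, 26.8, 22.0 and 50.1 CPM in WT. The mutant range enclosed the WT range, and the high value was that of mouse 10. In FrE it had 21.2, 15.3, 22.0, 23.7 and 11.9 CPM in the mutants, against 29.6, 80.3, 36.2, 55.2 and 0 CPM in WT. The FrE ranges overlapped through WT mouse 7, which had no count, and the 23.7 CPM of mutant mouse 9 rests on 1 count. Both are low-complexity libraries. The FrE difference was -1.24 ± 1.01, and -1.58 ± 0.52 without the low-complexity libraries (edgeR, adjusted p = 0.999 and 0.365).

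In FrC, FrD and FrE none of the 8 genes was called between genotypes by edgeR. Over all genes tested, edgeR called 0.0%, 0.00996% and 0.0% in FrC, FrD and FrE. DESeq2 called none of the 8 either, beside 1.86%, 0.728% and 0.625% of all genes. In FrC 2 of the 8 had an unadjusted edgeR p under 0.05, and in FrD and FrE 0 of 8, beside 11.3%, 5.28% and 5.3% of all genes. In FrE 6 of 8 fitted differences were below 0, with a median of -1.03 beside -0.10 over all genes tested, and without the low-complexity libraries the median was -0.51. In FrE the granulocyte and monocyte markers summed to 15.6 to 66105 CPM in the mutants and 36.0 to 1055 CPM in WT. The highest was mutant mouse 5, not a low-complexity library. The plasma cell markers summed to 1667 to 2565 CPM in mutant FrE and 1097.5 to 23404 CPM in WT FrE. In FrC the erythroid markers ran from 10.6 to 80150 CPM in the mutants and from 906.5 to 6517 CPM in WT. Their part in the differences was not tested. With counts summed to 1 column per mouse over the fractions, edgeR called 0 of 8 genes and 0.631% of all genes, 1 of the 8 and 16.6% of all genes had an unadjusted p under 0.05, and DESeq2 called 1 of the 8 and 4.48% of all genes. That gene was Scap, at 0.99 ± 0.29 (SE, edgeR adjusted p = 0.129, DESeq2 adjusted p = 0.0373). Left to the other 30 libraries, it was 0.21 ± 0.23 (edgeR adjusted p = 0.76). Those sums held FrB of 1 mutant mouse and FrC of 2, against FrB and FrC of all 5 WT mice. They therefore compare unlike mixes of fractions, and the value is not like for like with that over all libraries.

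In WT mice the 7 genes other than Idi1 had mean levels between 2.52 and 12.9 CPM per kb of exon. Per kilobase of exon, Fdft1 had the highest mean level in WT FrB and FrC (11.6 ± 2.47 and 9.99 ± 2.78 CPM per kb) and Hmgcs1 in WT FrD and FrE (10.2 ± 8.10 and 12.9 ± 10.8 CPM per kb), while Idi1 stood between 1.08 and 2.42 CPM per kb (SD, n = 5). In the mutants Scap led in FrB (45.1 ± 25.6 CPM per kb), Sqle in FrC (11.9 ± 16.6), and Insig1 in FrD and FrE (16.7 ± 4.38 and 13.1 ± 4.74). The lead of Sqle rests on the FrC library of mouse 10. Without the low-complexity libraries Cyp51 led in mutant FrC (11.1 CPM per kb over 2 libraries) and Insig1 in WT FrE (12.8 CPM per kb over 4 libraries), where Hmgcs1 stood at 8.56 CPM per kb, and the leading gene of the other 6 groups was the same. Scap was then at 12.6 CPM per kb in the 1 mutant FrB library left. When the 8 groups of libraries were placed in order of mean level for each gene, all 56 pairs of neighbours in these orders overlapped in range.

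None of the 8 genes was called at any of the 3 steps between consecutive WT fractions by edgeR, where 0.166%, 5.23% and 5.32% of 11439 genes were called from FrB to FrC, FrC to FrD and FrD to FrE. Unadjusted p was under 0.05 for 0, 0 and 1 of the 8, beside 5.04%, 19.9% and 21.2% of all genes. DESeq2 called 0, 0 and 1 of the 8, beside 1.35%, 11.8% and 13.4% of all genes. That gene was Srebf2, which averaged 72.2 ± 30.4 CPM in WT FrE and 27.2 ± 17.3 CPM in WT FrD (SD, n = 5 each) and was higher in FrE in 4 of 5 mice. Its step was 1.35 ± 0.49 (SE, edgeR adjusted p = 0.103, DESeq2 adjusted p = 0.0275), and 1.33 ± 0.48 without the low-complexity libraries (edgeR adjusted p = 0.0876). From FrD to FrE 7 of 8 steps were above 0, with a median of 0.71 beside 0.008 over all genes, and without the low-complexity libraries the median of the 8 was 0.63. The plasma cell markers had a median sum of 7817 CPM in WT FrE and 1273 CPM in WT FrD. The cycling markers Mki67, Top2a, Ccnb1, Cdk1 and Birc5 had a median sum of 760 CPM in WT FrE and 2802 CPM in WT FrD. Their part in the steps from FrD to FrE was not tested. Insig1 was lower in WT FrC than in WT FrB in 5 of 5 mice, at 17.4 ± 2.74 CPM in FrC and 31.4 ± 5.73 CPM in FrB, and the step of -0.94 ± 0.78 did not pass the test (edgeR, adjusted p = 1.0). With the low-complexity WT libraries left out of the fit it was -0.93 ± 0.34 (adjusted p = 0.222). The plasma cell markers summed to 915.0 to 10588 CPM in WT FrC and 17421 to 52490 CPM in WT FrB, the erythroid markers to 907 to 6517 CPM in WT FrC and 2071 to 22940 CPM in WT FrB, and the granulocyte and monocyte markers to 20.4 to 254 CPM in WT FrC and 41.7 to 9837 CPM in WT FrB. Their part in the step of Insig1 was not tested.

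The mutant steps likewise gave no call by edgeR, with 0.0%, 2.97% and 0.0% of 11197 genes called at the 3 steps. From FrB to FrC, FrC to FrD and FrD to FrE, 1, 2 and 1 of the 8 genes had an unadjusted p under 0.05, beside 16.0%, 15.4% and 5.5% of all genes. DESeq2 called 1, 0 and 0 of the 8, beside 3.62%, 4.58% and 0.949% of all genes. Scap was lower in mutant FrC than in mutant FrB in 5 of 5 mice, with a step of -2.93 ± 0.60 (SE, edgeR adjusted p = 0.0762, DESeq2 adjusted p = 0.000345). Without mutant mouse 5 that step was -3.29 and passed the edgeR threshold (adjusted p = 0.0206), as did 1.74% of all genes. In the mutant libraries of higher complexity it was -0.84 ± 0.89 (adjusted p = 1.0). In 5 of 5 mutant mice FrE held more Scap than FrD (1.28 ± 0.59, adjusted p = 0.776; 0.95 ± 0.50 without the low-complexity libraries). Insig1 was higher in mutant FrD than in mutant FrC in 5 of 5 mice, at 51.6 ± 13.6 CPM in FrD and 18.8 ± 10.9 CPM in FrC, and the step of 1.16 ± 0.76 did not pass the test (adjusted p = 0.518). In those of higher complexity it was 1.27 ± 0.56 (adjusted p = 0.398). Srebf2 was lower in mutant FrC than in mutant FrB in 5 of 5 mice, at 45.0 ± 14.9 CPM in FrC and 109 ± 59.9 CPM in FrB. Its fitted step, which uses TMM factors where CPM do not, was only -0.20 ± 0.75. Idi1 was lower in mutant FrE than in mutant FrD in 5 of 5, with a fitted step of -2.57 ± 1.92. Counts of mice, here and for the WT steps, use CPM and are named where all 5 agreed, besides Srebf2 in WT. They were not made over all genes.

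The steps themselves were compared between genotypes on all 40 libraries. No gene of the 8 was called by edgeR for FrB to FrC, FrC to FrD or FrD to FrE, where 0.524%, 2.98% and 0.153% of 12397 genes were called. Unadjusted p was under 0.05 for 1, 0 and 0 of the 8, beside 12.8%, 14.0% and 10.2% of all genes. DESeq2 called 1, 0 and 0 of the 8, beside 2.55%, 5.2% and 4.03% of all genes. The gene was Scap from FrB to FrC, at -3.34 ± 0.95 (SE, edgeR adjusted p = 0.0793, DESeq2 adjusted p = 0.0216), and without mutant mouse 5 it passed the edgeR threshold too (-3.73, adjusted p = 0.035), as did 3.03% of all genes. Over the 30 libraries of higher complexity the difference was -1.27 ± 0.89 (adjusted p = 1.0). The comparisons of genotypes and of steps use the same libraries, so their values are not independent of each other.

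Around the 8 genes, 37 further genes of the pathway were followed in 4 lists. Of the 34 tested in FrB, 2 were higher in the mutant and 1 was lower, beside the 5.64% and 1.72% of all genes given above.

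Stard4, a cytosolic sterol carrier, had 136, 37.3, 169, 88.6 and 144 CPM in FrB of mutant mice 4, 5, 8, 9 and 10, against 44.0, 40.7, 34.3, 26.7 and 29.9 CPM in FrB of WT mice 1, 2, 3, 6 and 7. The mutant library of mouse 5 lay inside the WT range and the other 4 lay above it, with a fitted log2 difference of 2.16 ± 0.56 (SE, edgeR adjusted p = 0.0311). Srebf1, the gene of the related factor SREBP1, had 50.8, 38.9, 42.6, 47.5 and 180.2 CPM in mutant FrB, against 25.1, 15.98, 10.7, 18.4 and 10.8 CPM in WT FrB. All mutant values were above the WT values, and the fitted difference was 2.44 ± 0.64 (adjusted p = 0.0326). Without the low-complexity libraries the values were 0.02 for Stard4 and 1.19 for Srebf1, and neither passed the test. With libraries scaled to the ERCC spike-ins neither passed it (adjusted p = 0.168 for Stard4 and 0.14 for Srebf1).

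The gene that was lower was Apoe, an apolipoprotein that carries cholesterol out of macrophages and other cells. It had 21.3, 0.30, 2.01, 1.06 and 13.3 CPM in mutant FrB, against 132, 233, 122, 211 and 241 CPM in WT FrB. The groups were far apart, and the fitted log2 difference was -4.36 ± 0.94 (SE, edgeR adjusted p = 0.0138). The call did not stand under ERCC scaling (-3.38, adjusted p = 0.075). Without the low-complexity libraries the difference was -9.32, but mouse 5 was then the 1 mutant library, with 5 counts of Apoe. Abcg1, a sterol exporter, had a difference of -2.16 in that reduced comparison. It averaged 23.6 ± 26.0 CPM in mutant FrB and 134 ± 28.1 CPM in WT FrB with all libraries. Macrophage and other non-B cells also express Apoe, and the marker sums given above apply to these libraries too. Their part in these differences was not tested.

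**Figure D4:**
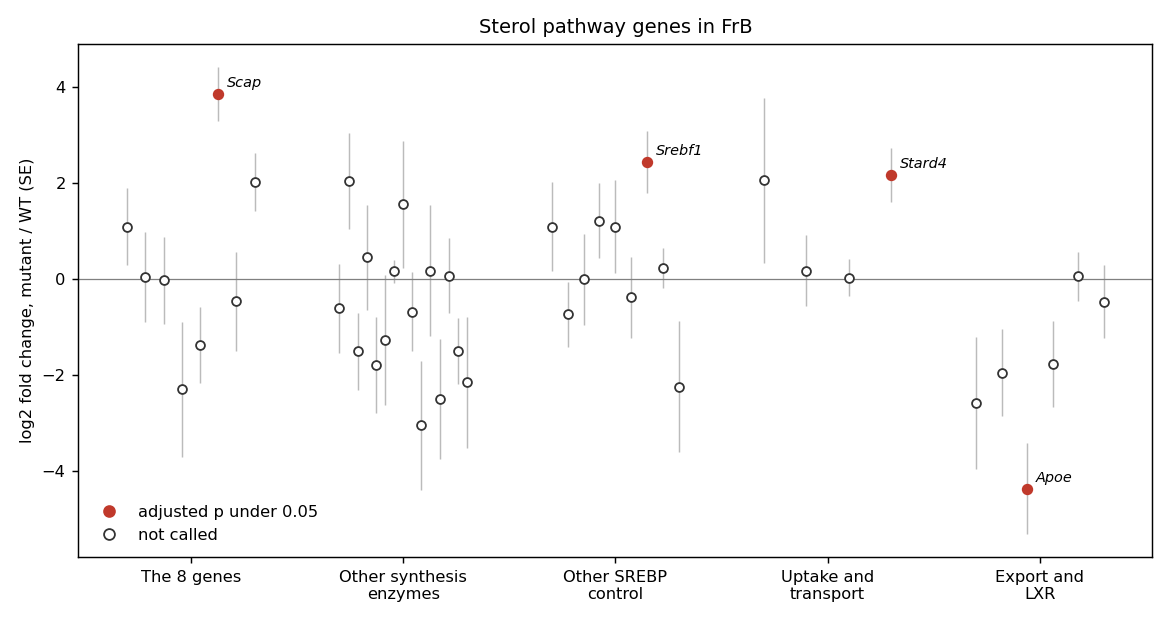
Fitted log2 fold change in FrB, mutant over WT, of the 8 genes and of the 34 tested genes of the 4 further lists, with SE as error bars. Filled red points passed an adjusted p of 0.05 and are named: Scap, Srebf1 and Stard4 lie above 0 and Apoe lies below.

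By list, edgeR called none of 15 further synthesis enzymes in mutant FrB, and the list's median was -0.67. Unadjusted p was under 0.05 for 2 of the 15, beside 23.9% of all genes. The 4 members of that list with the greatest absolute change were Mvd (-3.04 ± 1.34), Nsdhl (-2.49 ± 1.25), Tm7sf2 (-2.15 ± 1.36) and Dhcr7 (2.04 ± 0.999), and these did not pass the test. Among 9 other SREBP control genes 1 was higher (Srebf1) and 0 lower, with a median of 0.22. Among 4 tested uptake and transport genes 1 was higher (Stard4) and 0 lower, with a median of 1.12, and among 6 tested export and LXR genes 0 were higher and 1 was lower (Apoe), with a median of -1.86. The median over all genes tested was 0.112. Without the low-complexity libraries, which left mouse 5 as the 1 mutant library, the medians were -0.54 for synthesis and 0.20 for SREBP control. They were -0.11 for uptake and transport and -1.13 for export and LXR genes, beside -0.158 over all genes. In FrC, FrD and FrE edgeR called 0 of the 34 tested list genes. Unadjusted p was under 0.05 for 3, 4 and 0 of them, beside 11.3%, 5.28% and 5.3% of all genes.

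In WT development the called list genes were Mylip and Npc2. Mylip encodes a sterol-responsive ubiquitin ligase, and averaged 224 ± 47.3 CPM in WT FrD and 47.9 ± 13.5 CPM in WT FrC (SD, n = 5 each; log2 step 2.49 ± 0.34, SE, edgeR adjusted p = 0.000126), a step in which 2.95% of all genes were called higher. Npc2, which moves cholesterol out of lysosomes, averaged 555 ± 41.7 CPM in WT FrD and 227 ± 33.1 CPM in WT FrC (1.55 ± 0.24, adjusted p = 0.000502). Both were lower again in FrE, at 103 ± 43.5 CPM for Mylip (-1.20 ± 0.33, adjusted p = 0.0354) and 319 ± 74.8 CPM for Npc2 (-0.82 ± 0.24, adjusted p = 0.0437), where 2.43% of all genes were called lower. These 4 calls stood without the low-complexity libraries. They are relative to the rest of the RNA: with libraries scaled to the ERCC spike-ins the median of all genes from FrC to FrD was -2.39, Mylip was at 0.15 ± 0.62 and Npc2 at -0.88 ± 0.57, and none of the 4 passed the test.

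Correlations between the 5 enzymes over the libraries were low. Pearson's r between pairs of them, on log2(CPM + 1) over 40 libraries, ran from -0.01 to 0.43 with a median of 0.21 over 10 pairs, and from -0.06 to 0.44 over the 30 libraries that were not of low complexity. The libraries come from 10 mice and differ in depth, so these are descriptions. Against the mean standardised level of the 5 enzymes, Insig1 had r = 0.65, Srebf2 r = -0.19 and Scap r = -0.26 over 40 libraries. Over the 30 libraries that were not of low complexity these were 0.009, -0.05 and -0.09, so the value of Insig1 rests on the low-complexity libraries. The 5 genes outside the lists with the highest r among 12397 were Hmces (0.88), Acp1 (0.87), Ssr1 (0.87), Pdss1 (0.85) and Nup43 (0.84), and the highest list gene was Sc5d (0.73), all over 40 libraries. Over the 30 others these 6 had r = 0.75, 0.51, 0.69, 0.72, 0.57 and 0.37.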

How the data were processed

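The authors deposited a table of raw counts per gene, with a column for each library. Per the submitters' processing notes the tools were HISAT2 2.1.0, featureCounts 1.4.6 (Subread) and DESeq2, with build mm10. No source used here gives the annotation release or the strand setting. The table has 22050 rows, 92 of them ERCC spike-ins, which were kept out of totals and tests except for the scaling named below. The protocol has no molecular identifiers, so counts are of amplified reads.

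Genes were tested with edgeR 4.0.16 in R 4.3.3 (quasi-likelihood, robust, TMM, and filterByExpr at its defaults of 10 counts and a total of 15). Tests were two-sided, with p-values adjusted by Benjamini-Hochberg over all genes tested and a threshold of 0.05. All 8 genes passed the filter in every comparison. Genotypes were compared on the 10 libraries of a fraction, steps on the 20 libraries of a genotype, and differences in step on all 40. The replicate is the mouse. CPM used endogenous totals, and levels per kilobase used merged GENCODE M21 exons (GRCm38). TMM factors entered the fits but not CPM, so a fitted value need not match the ratio of mean CPM. Errors are SD for levels and SE for fitted values. The scripts were tested on counts simulated from the WT FrC libraries. That group has 0 low-complexity libraries, so the test does not cover groups that hold them.

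Alternatives were DESeq2 1.42.0, RLE factors, no filter, ERCC scaling, no low-complexity libraries, each mouse left out, the second index set as a covariate and the mouse as a block. Libraries with the same number come from 1 animal, which gives the pairing. Their deviations from the group means correlated by a median of only -0.015 to 0.06 over the 6 steps.

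The genes and lists were chosen with earlier results of these data known. List genes are named where called, or as the 4 of greatest absolute change of a list, and Abcg1 was added after its values were seen. Some genes of the lists are not reported here and were left out of the list counts and marker sums. The likeness ranking names the 5 highest genes outside the lists.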

Additional observations from a re-analysis of the deposited data

Results flagged for a closer look

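Single libraries stood far from the other 4 of their group in 5 of the 64 combinations of gene and group, and all 5 were low-complexity libraries. The cutoff for such a gap flags about 1 in 20 groups by chance where values are normally distributed. That rate was not measured for these CPM values. Cyp51 was at 165 CPM in FrB of mutant mouse 10, with the next mutant library at 49.8 CPM. Sqle was at 228 CPM in FrC of mutant mouse 10, with the next at 46.9 CPM. In FrE of mutant mouse 9, a library of 42111 counts, Sqle was at 95.0 CPM (4 counts, next 21.6 CPM) and Scap at 142 CPM (6 counts, next 43.6 CPM). Scap was at 250.2 CPM in FrE of WT mouse 7, with the next WT library at 46.0 CPM.

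The genotype difference of Scap differed between FrD and FrB by a log2 value of -5.19 (edgeR, tested on all 40 libraries, chosen after the values were seen). Without the low-complexity libraries it was -1.85 (adjusted p = 0.971).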

How the results depend on the processing

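Over all pairs of a comparison and an alternative setting, the number of the 8 genes called stayed within 1.5 times its main value in 191 and moved in 19. In the main fits this number was above 0 only in FrB and for the difference from FrB to FrD, so most of the 191 are a 0 that stayed at 0. In FrB it was 1, against 2 with DESeq2 or RLE factors, 0 without low-complexity libraries, and 1 to 2 when each mouse was left out. For the genotype effect over fractions, the WT step FrD to FrE, the mutant step FrB to FrC and the genotype difference in step FrB to FrC it was 0, against 1 with DESeq2, and 0 to 1 on leaving out a mouse for the last 2. For the difference from FrB to FrD it was 1, against 0 under ERCC scaling, 0 without low-complexity libraries and 0 to 1 on leaving out a mouse. Under ERCC scaling it was 7 for the WT step FrC to FrD and 2 for the mutant step, where 58.0% and 28.8% of all genes were called and the median of all genes was -2.39 and -2.29, so Hmgcs1 (-2.29) and Insig1 (-2.47) reversed. In FrB that scaling moved the median of all genes from 0.112 to 0.59. The cause of the other moves was not tested.

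With the mouse as a replicate block the Scap difference from FrB to FrD was -4.91 (adjusted p = 0.0326), and the block changed no other count of the 8 genes called. Of the values not called in either fit, 9.33% changed sign under an alternative. Where FrB of the mutant was left with 1 library, that library was assumed to vary like the others. With a total of 42111 counts, FrE of mutant mouse 9 gave at most 6 counts for any of the 8 genes.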
